A study of Homo sapiens with 18 samples.

Results

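The RAB small GTPase genes are the 42 genes on the array whose symbol is RAB followed by a number and at most 1 letter, out of 11963 genes with a probe set that names exactly 1 gene. Proteins named after a RAB (effectors, interacting proteins, exchange factors, GTPase-activating proteins), pseudogenes and probe sets that name several genes were left out, so RAB4B, RAB6A and RAB6C, which appear here only on shared probe sets, are not described. The 42 genes have 76 probe sets, and each gene was read from the probe set with its highest mean over all arrays. Of the 42, 33 passed a filter on low values and were tested among 7828 genes. The other 9 (RAB3D, RAB25, RAB26, RAB27B, RAB30, RAB33A, RAB38, RAB40A and RAB40C) were too dim on the probe set used.

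RNA was measured in U251, an established human glioblastoma cell line, on Affymetrix HG-U133A 2.0 arrays. Untransfected cells (Control), cells given 2 pmol of a negative siRNA (siNeg) and cells given 2 pmol of siRNA against MPS1 (siMPS1) were collected 6, 24 and 48 h after transfection, with 2 arrays in each of the 9 groups. MPS1 is the spindle checkpoint kinase encoded by TTK. Nothing in the labels ties the pair of arrays in a group to different cultures, so p-values measure the spread between these arrays, which may be technical. All values are log2(signal + 3), and differences are on this scale, which understates the change of dim genes.

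RAB proteins are molecular switches of membrane traffic: bound to GTP they sit on a particular organelle and recruit effectors, and bound to GDP they are taken off the membrane by GDP dissociation inhibitors. Exchange factors load them with GTP, TBC-domain proteins make them hydrolyse it, and a lipid anchor added by a prenyltransferase lets them hold on to membranes. In glial and glioma cells they carry receptors and integrins through endosomes, feed lysosomes and autophagosomes, and move vesicles during cell division.

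To show the DNA at the starts of genes described below, the 250 bases before the annotated start were taken from RefSeq (GRCh38.p14), 5′ to 3′ on the gene's strand. Shown are the late endosomal RAB7A (chr3:128725933-128726182, + strand) and RAB29 (chr1:205775483-205775732, - strand), the recycling RAB11A (chr15:65869241-65869490, + strand), whose differences between siMPS1 and siNeg at 48 h stayed past the threshold whichever array was left out, and the polarised-traffic RAB8B (chr15:63189356-63189605, + strand), which was lower in siMPS1. Capitals mark matches on either strand to the GC box GGGCGG, the E-box CACGTG or CCAAT.
RAB7A: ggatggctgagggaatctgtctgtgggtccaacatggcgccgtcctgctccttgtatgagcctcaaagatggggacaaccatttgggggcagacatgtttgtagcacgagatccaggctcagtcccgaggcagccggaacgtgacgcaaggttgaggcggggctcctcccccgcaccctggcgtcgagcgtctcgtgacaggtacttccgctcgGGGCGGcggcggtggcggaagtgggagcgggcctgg
RAB29: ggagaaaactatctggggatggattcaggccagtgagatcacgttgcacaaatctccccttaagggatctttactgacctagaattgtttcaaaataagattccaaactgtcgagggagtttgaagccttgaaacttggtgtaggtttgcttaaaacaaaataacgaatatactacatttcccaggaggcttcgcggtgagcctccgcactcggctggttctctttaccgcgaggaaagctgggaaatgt
RAB11A: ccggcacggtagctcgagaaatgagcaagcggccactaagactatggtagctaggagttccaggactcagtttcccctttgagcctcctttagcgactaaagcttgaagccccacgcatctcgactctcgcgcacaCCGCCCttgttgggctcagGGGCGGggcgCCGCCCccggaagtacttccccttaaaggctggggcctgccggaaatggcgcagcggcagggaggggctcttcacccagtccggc
RAB8B: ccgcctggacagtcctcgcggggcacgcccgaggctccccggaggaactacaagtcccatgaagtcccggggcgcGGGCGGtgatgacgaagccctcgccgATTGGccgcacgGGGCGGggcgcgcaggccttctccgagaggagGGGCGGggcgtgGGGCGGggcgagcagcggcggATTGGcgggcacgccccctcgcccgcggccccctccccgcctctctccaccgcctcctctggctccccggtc
Of all 42 RAB genes, whether or not they passed the filter, 33 had an entry, with 46 such windows. These are not the same 33 genes as those tested. GGGCGG on either strand lay in 34 of the 46 (73.9%), against 42.6% of 35116 windows of the same length in all genes. CCAAT lay in 32.6% against 32% and CACGTG in 8.7% against 6.34%, and median GC content was 63.8% in the RAB windows against 58%. Of the 4 windows shown, RAB29 held none of these letters and RAB8B held 4 GC boxes. A match describes the letters only.

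TTK, the silenced gene, was lower in every siMPS1 array than in every other array of the same time. Its siNeg arrays read 5.48 and 5.71 at 6 h, 6.86 and 6.89 at 24 h and 6.72 and 6.92 at 48 h, against 4.07 and 4.27, 5.23 and 4.74, and 4.78 and 4.26 in siMPS1. The differences were -1.43, -1.88 and -2.30 (adjusted p = 0.000807, 8.87e-06 and 2.35e-07). Array medians of the deposited values ran from 4.30 to 4.56 and the replicate arrays correlated at 0.983 to 0.990. Among astrocyte and glioma markers 6 of 11 (VIM, NES, CD44, SOX9, FABP7 and SLC1A3) were above the array median in every array. S100B, AQP4, PDPN and ALDH1L1 were below it in every array. GFAP, at -0.004 to 4.87 in the deposited values, was above it in some arrays and below it in others. All 7 blood and microglia markers on the array and 3 of 4 endothelial ones were below the median in every array. Of 6 neuronal markers 1 (GAD1) was above it and 4 (SYP, SYN1, SNAP25 and STMN2) were below it in every array. Of 5 epithelial ones 2 (KRT18 and KRT8) were above it and 3 (EPCAM, CDH1 and KRT19) were below it in every array. The array controls of RNA integrity, which compare the ends of a transcript, were highest in 1 group: the ACTB 3′ minus 5′ log2 difference was 0.895 in siMPS1 at 48 h, against 0.117 in siNeg and 0.204 in Control, and the GAPDH one was 0.292 against 0.047 and -0.031. The 18S rRNA probe read 11.13 in siMPS1 at 48 h against 9.47 in siNeg and 10.17 in Control. At 24 h it was siNeg that read highest on that probe (11.15, against 10.18 in Control and 10.36 in siMPS1), and at 6 h siMPS1 read highest on the Alu probe (12.96, against 12.48 in siNeg and 12.42 in Control). The part of these differences in the results below was not tested.

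**Figure D1:**
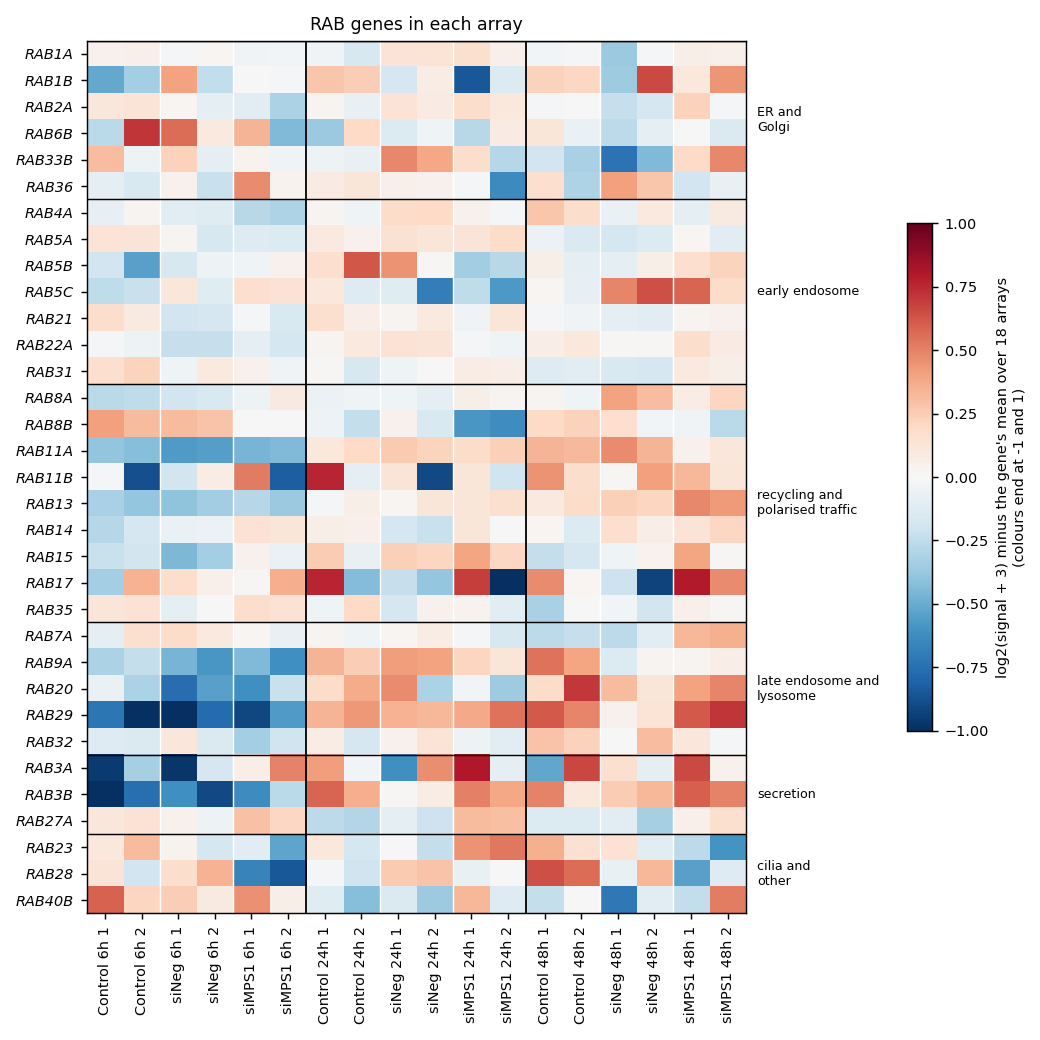
RAB genes that passed the filter (rows, grouped by the compartment their proteins serve) in each of the 18 arrays (columns, ordered by time and treatment). Colour is log2(signal + 3) minus the gene's own mean over 18 arrays and ends at -1 and 1. The steps between 6 h and the later times in RAB29, RAB11A and RAB9A cross all 3 treatments, while RAB7A stands high in the 2 siMPS1 arrays at 48 h.

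Between siMPS1 and siNeg, differences in RAB genes were few at 6 h and 24 h and more common at 48 h, as they were over all genes. At an adjusted p under 0.05 (limma), 1 of 33 RAB genes differed at 6 h, 4 at 24 h and 10 at 48 h. That is 3.03%, 12.1% and 30.3% of the RAB genes, beside 7.7%, 10.9% and 29.2% of all genes tested. The 1 at 6 h was lower (background 4.25% lower and 3.45% higher), and 3 of the 4 at 24 h were higher (background 5.14% higher and 5.81% lower). The RAB share was therefore near the background at 24 h and 48 h. At 48 h 8 of the 10 were higher and 2 lower, beside 15.7% of all genes higher and 13.5% lower. On the average over the 3 times 8 RAB genes were called (24.2%, beside 24.8% of all genes). A test of whether the difference itself changed called 0 of 33 from 6 to 24 h (limma, 5 at an unadjusted p under 0.05, beside 3.68% of all genes called) and 5 from 24 to 48 h (beside 15.8%). The median difference over the 33 genes was 0.08, -0.01 and 0.14 at 6, 24 and 48 h, against 0.01, 0.00 and 0.03 over all genes. The 14 genes called at one time or another are 42.4% of the RAB genes tested, beside 38.2% of all genes. Each of the 15 gene-and-time calls had its 2 siMPS1 arrays beyond both siNeg arrays. Centring each array on its median left 2 calls at 24 h (1 higher, 1 lower) in place of 4 (3 higher, 1 lower), and a fold change of at least 1.5 as a further condition left 1 at 24 h and 1 at 48 h. With only the 2 compared groups fitted, RAB8B, RAB14 and RAB23 at 24 h (adjusted p = 0.058, 0.0794 and 0.0666) and RAB1A, RAB8A, RAB13 and RAB27A at 48 h (0.106, 0.105, 0.0605 and 0.0549) were not called. Without the intensity trend in the fit RAB14, RAB23, RAB1A and RAB8A were not (0.0622, 0.0579, 0.0809 and 0.0522). RAB23 and RAB1A were not called without the filter (0.0874 and 0.053) or with median centring (0.0595 and 0.0715) either.

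**Figure D2:**
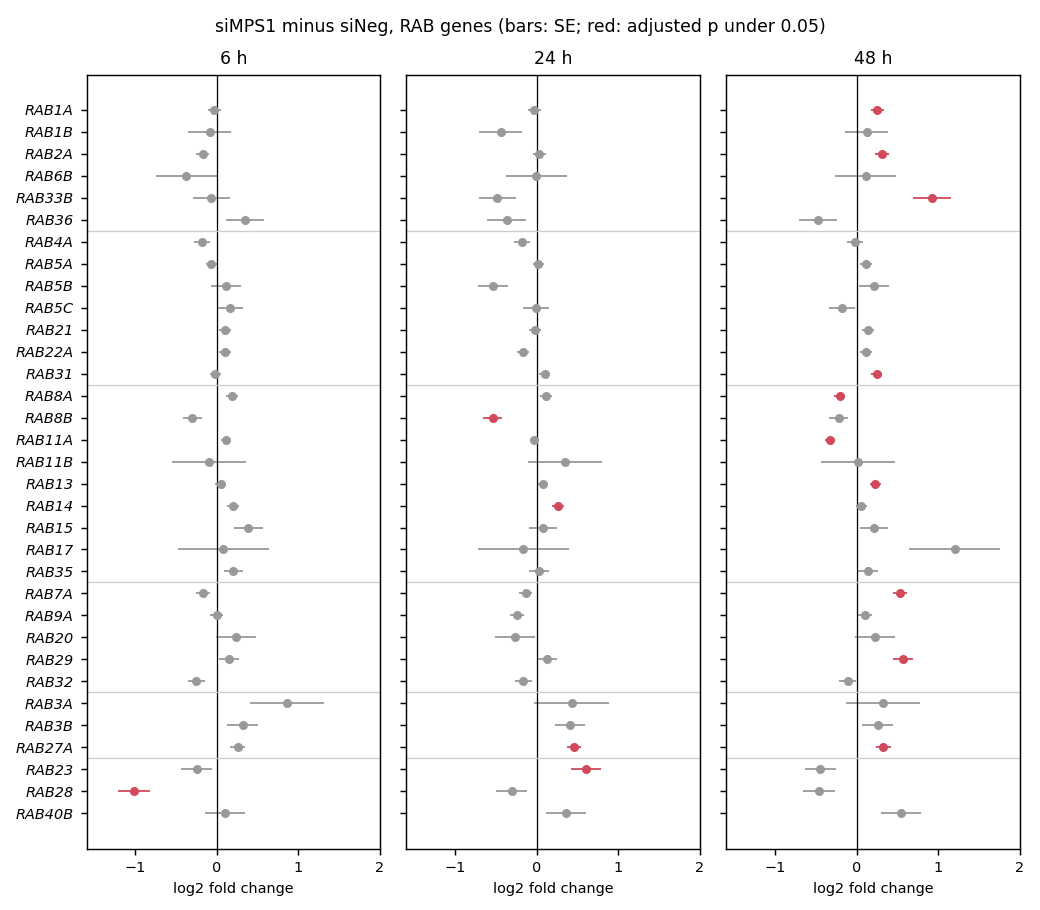
Difference in log2(signal + 3), siMPS1 minus siNeg, for the 33 RAB genes at 6, 24 and 48 h, with the standard error of the fit (2 arrays a group) as bars. Red points have an adjusted p under 0.05: RAB28 at 6 h, 4 genes at 24 h and 10 at 48 h.

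Among RABs of the endoplasmic reticulum and Golgi, 6 of 8 members passed the filter. None was called by limma at 6 h or 24 h (1 at each time had an unadjusted p under 0.05) and 3 of 6 were higher in siMPS1 at 48 h, beside 15.7% of all genes higher. The group median was 0.19, beside 0.03 over all genes. Against Control at 48 h 0 of 6 were called by limma (1 had an unadjusted p under 0.05), beside 27.5% of all genes. The group median there was 0.07, beside 0.05 over all genes. The 3 genes higher than siNeg (RAB1A, RAB2A and RAB33B) were also those called lower in siNeg at 48 h than in siNeg at 24 h, beside 29.2% of all genes called in that step. RAB33B, a Golgi RAB that binds the autophagy protein ATG16L1, read 3.97 and 4.27 in siNeg and 4.90 and 5.19 in siMPS1 at 48 h. Both siMPS1 arrays were above both siNeg arrays and above both Control arrays (4.52 and 4.38). The difference from siNeg was 0.92 (SE 0.23, adjusted p = 0.00527), whereas the difference from Control was 0.59 (adjusted p = 0.0653). RAB33B lay lower in siNeg at 48 h than in the same treatment at 24 h (5.19 and 5.09), by -1.02 (adjusted p = 0.00259). Without siNeg 48 h array 1 or siMPS1 48 h array 2 its adjusted p at 48 h was 0.0568 or 0.0624.

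RAB2A, needed for traffic between the endoplasmic reticulum and Golgi, read 8.56 and 8.63 in siNeg and 9.02 and 8.78 in siMPS1 at 48 h. The difference was 0.31 (SE 0.08, adjusted p = 0.0086), and the Control arrays (8.78 and 8.80) lay level with the lower siMPS1 array. RAB1A, which tethers vesicles arriving at the Golgi, read 10.39 and 10.74 in siNeg and 10.82 and 10.81 in siMPS1, a difference of 0.25 (SE 0.08, adjusted p = 0.0267). Its Control arrays, at 10.73 and 10.74, lay close to the higher siNeg array, and without the lower one (siNeg 48 h array 1) the adjusted p was 0.492. RAB1A also lost its call without either siMPS1 48 h array (0.0956 and 0.0887), and RAB2A did without siNeg array 1 (0.0621) or siMPS1 array 1 (0.15) of that time. RAB1B, RAB6B and RAB36 were called in none of these comparisons, with differences of 0.12, 0.11 and -0.48 at 48 h.

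All 7 early endosomal RABs passed the filter, and of these RAB31 was higher in siMPS1 at 48 h and none was called by limma at 6 h or 24 h (0 and 2 had an unadjusted p under 0.05). RAB31, which works between the trans-Golgi and endosomes, read 8.78 and 8.76 in siNeg and 9.03 and 8.99 in siMPS1, with Control at 8.79 and 8.81. The 2 siMPS1 arrays lay above the other 4 arrays of that time. The difference was 0.24 from siNeg (SE 0.07, adjusted p = 0.0118) and 0.20 from Control (adjusted p = 0.0322). The first was past the threshold except without siNeg array 2 (0.0568) or siMPS1 array 1 (0.071) of 48 h, and the one from Control lost its call without any 1 of the 4 arrays compared (0.0775 to 0.142). RAB5A, RAB5B and RAB5C, the organisers of early endosome fusion, differed from siNeg at 48 h by 0.11, 0.21 and -0.18 on the probe sets used, with adjusted p of 0.24, 0.429 and 0.425. RAB4A, RAB21 and RAB22A differed by -0.02, 0.14 and 0.12 and were not called.

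Of the recycling and polarised-traffic RABs, 9 of 10 passed. RAB11A, the RAB of the recycling endosome, was lower in siMPS1 at 48 h: siNeg read 9.86 and 9.73, Control 9.73 and 9.71, and siMPS1 9.43 and 9.51. Both siMPS1 arrays were below all 4 others. The difference was -0.33 from siNeg (SE 0.06, adjusted p = 0.000489) and -0.25 from Control (adjusted p = 0.00456). At 6 h and 24 h the differences from siNeg were 0.11 and -0.03. The other probe set of RAB11A read 7.51 and 7.77 in siNeg and 7.82 and 7.72 in siMPS1 at 48 h. With its probe sets averaged the 48 h difference from siNeg was -0.0998 and was not called (limma, adjusted p = 0.272).

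RAB8A and RAB8B are closely related RABs of transport to the plasma membrane and cilium. Against siNeg RAB8A was called at 48 h and RAB8B at 24 h, but their differences at 48 h were alike (-0.21 and -0.22). A change in the difference between times was called for RAB8A from 24 to 48 h and for RAB8B at neither step. RAB8B read 6.38 and 6.19 in siNeg and 5.76 and 5.72 in siMPS1 at 24 h, with Control at 6.29 and 6.10, so that both siMPS1 arrays were below the other 4. Its differences from siNeg were -0.30, -0.54 and -0.22 at 6, 24 and 48 h, with adjusted p of 0.13, 0.00652 and 0.176, and -0.36 averaged over the times (adjusted p = 0.000978). Against Control it was lower by -0.36, -0.46 and -0.37 at the 3 times (adjusted p = 0.0452, 0.017 and 0.028). Without siNeg 24 h array 1 the adjusted p of the 24 h difference from siNeg was 0.0945. Each of the 3 calls against Control was lost without 1 or more of the arrays compared: at 6 h without any 1 of the 4 (0.109 to 0.202) or of 4 arrays of other groups (0.0538 to 0.0578), at 24 h without Control array 1 (0.152) or siMPS1 array 2 (0.085) and with quantile normalization (0.0523), and at 48 h without Control array 1 (0.0873), Control array 2 (0.116) or siMPS1 array 2 (0.241). With only the compared groups fitted none of the 3 was called (0.0621, 0.0971 and 0.0624), and without the filter the 6 h one was not (0.0637).

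RAB8A read 8.65 and 8.56 in siNeg, 8.32 and 8.46 in siMPS1 and 8.27 and 8.21 in Control at 48 h. The siNeg arrays were the highest, the siMPS1 arrays lay between, and no group overlapped another. It was lower in siMPS1 than in siNeg by -0.21 (SE 0.07, adjusted p = 0.0321), while siNeg itself was higher than Control by 0.36 (adjusted p = 0.0026). Without siNeg array 1 or siMPS1 array 1 of 48 h the difference from siNeg had an adjusted p of 0.197 or 0.257. RAB13, a RAB of tight junctions and the actin-rich cell edge, was higher in siMPS1 at 48 h (8.78 and 8.73, against 8.54 and 8.51 in siNeg and 8.40 and 8.49 in Control). The siMPS1 arrays lay above the other 4, by 0.23 from siNeg (SE 0.07, adjusted p = 0.0159) and 0.31 from Control (adjusted p = 0.00246). Its difference from siNeg was not called without siNeg array 2 (0.0761) or siMPS1 array 1 (0.0948) of 48 h.

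RAB14, which acts between the Golgi and endosomes, read 8.20 and 8.15 in siNeg and 8.49 and 8.37 in siMPS1 at 24 h. The difference of 0.26 (SE 0.07, adjusted p = 0.0281) stood beside Control arrays at 8.43 and 8.42, within the siMPS1 range. It was lost without siNeg array 1 (0.0928), siNeg array 2 (0.157) or siMPS1 array 1 (0.161) of 24 h, and with median centring (0.0516). Averaged over the times RAB14 was 0.17 higher (adjusted p = 0.00609). With its probe sets averaged neither the 24 h difference nor that over the times (0.10) was called (adjusted p = 0.108 and 0.23). RAB11B, RAB15, RAB17 and RAB35 were not called. RAB17 had the widest range of the 33 genes, 2.14 to 4.57 over 18 arrays, and its difference at 48 h of 1.20 had an SE of 0.56 (adjusted p = 0.12).

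Late endosomal and lysosomal RABs, 5 of 6 passing, held 2 genes called at 48 h against siNeg, both higher. That is 40% of the 5, beside 29.2% of all genes called and 15.7% higher. RAB7A, which drives late endosome maturation and fusion with lysosomes, read 8.03 and 8.17 in siNeg, 8.02 and 8.05 in Control and 8.61 and 8.64 in siMPS1 at 48 h. The 2 siMPS1 arrays agreed closely and lay above the other 4. The difference from siNeg was 0.53 (SE 0.08, adjusted p = 0.000124) and that from Control 0.59 (adjusted p = 5.91e-05). At 6 h and 24 h RAB7A differed from siNeg by -0.17 and -0.14 (adjusted p = 0.24 and 0.336).

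RAB29, a RAB of lysosome-related traffic that binds the kinase LRRK2, read 7.08 and 7.18 in siNeg and 7.65 and 7.75 in siMPS1 at 48 h. The difference was 0.57 (SE 0.12, adjusted p = 0.00184). The Control arrays, at 7.65 and 7.53, did not stand apart from siMPS1 (difference 0.11, adjusted p = 0.56), and siNeg was lower than Control by -0.46 (adjusted p = 0.0186, and 0.135 or 0.131 without Control array 1 or siNeg array 1). RAB9A, RAB20 and RAB32 were not called at any time against siNeg. RAB32, which serves melanosomes and mitochondria, was lower on average over the times by -0.18 (adjusted p = 0.0435), a call lost in 12 of the 18 fits that left out 1 array (0.0524 to 0.154) and under 5 other settings (0.0503 to 0.0961).

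Secretory RABs were mostly dim: 3 of 6 passed. RAB27A, a RAB of regulated secretion and exosome release, was the member called at more than 1 time. Its arrays read 7.15 and 7.04 in siNeg and 7.56 and 7.55 in siMPS1 at 24 h, with Control at 6.98 and 6.95, and 7.14 and 6.91 in siNeg, 7.29 and 7.41 in siMPS1 and 7.11 and 7.11 in Control at 48 h. At both times the siMPS1 arrays lay above the other 4. The differences from siNeg were 0.25, 0.46 and 0.33 at 6, 24 and 48 h (adjusted p = 0.0898, 0.00288 and 0.0103), and 0.35 averaged over the times (adjusted p = 0.000101), or 0.0933 over the times with its probe sets averaged (adjusted p = 0.151). Against Control they were 0.12, 0.59 and 0.24 (adjusted p = 0.361, 0.000301 and 0.0543). The 48 h call against siNeg was lost without siNeg array 2 (0.148) or siMPS1 array 2 (0.0939) of that time. RAB3B, a RAB of vesicle exocytosis, was called on the average of the times (0.32, adjusted p = 0.0366, not called in 10 of the 18 fits that left out 1 array, 0.0514 to 0.106, nor under 3 other settings, 0.0598 to 0.0955), and RAB3A was not called.

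The last group, with 3 of 5 members passing, held the lowest difference between siMPS1 and siNeg among the 33 genes. RAB28, a RAB of cilia and photoreceptors, read 5.35 and 5.53 in siNeg, 5.31 and 4.99 in Control and 4.51 and 4.34 in siMPS1 at 6 h. Both siMPS1 arrays were below the other 4, by -1.02 from siNeg (SE 0.19, adjusted p = 0.00663) and by -0.73 from Control (adjusted p = 0.0183). At 24 h and 48 h the differences from siNeg were -0.31 and -0.47 (adjusted p = 0.352 and 0.0823), and that averaged over the times was -0.60 (adjusted p = 0.000782). The 6 h difference from siNeg was lost without siNeg 6 h array 2 (0.0625) or siMPS1 6 h array 2 (0.0662), and that from Control without Control array 1 (0.144) or siMPS1 array 2 (0.114).

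RAB23, a regulator of Hedgehog signalling, turned direction between times. At 24 h it read 5.49 and 5.25 in siNeg and 5.93 and 6.01 in siMPS1, a difference of 0.60 (SE 0.19, adjusted p = 0.0466). At 48 h it read 5.63 and 5.37 in siNeg, 5.84 and 5.63 in Control and 5.22 and 4.88 in siMPS1, with a difference of -0.45 from siNeg (adjusted p = 0.0838) and -0.68 from Control (adjusted p = 0.012, and 0.0973 or 0.127 without Control array 1 or siMPS1 array 2). The 24 h call was lost without any 1 of 11 arrays (0.0507 to 0.258). RAB23 was read from a probe set whose name ends in _x_at, a suffix this array maker gives to sets with probes that can match other transcripts. RAB40B was not called against siNeg.

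**Figure D3:**
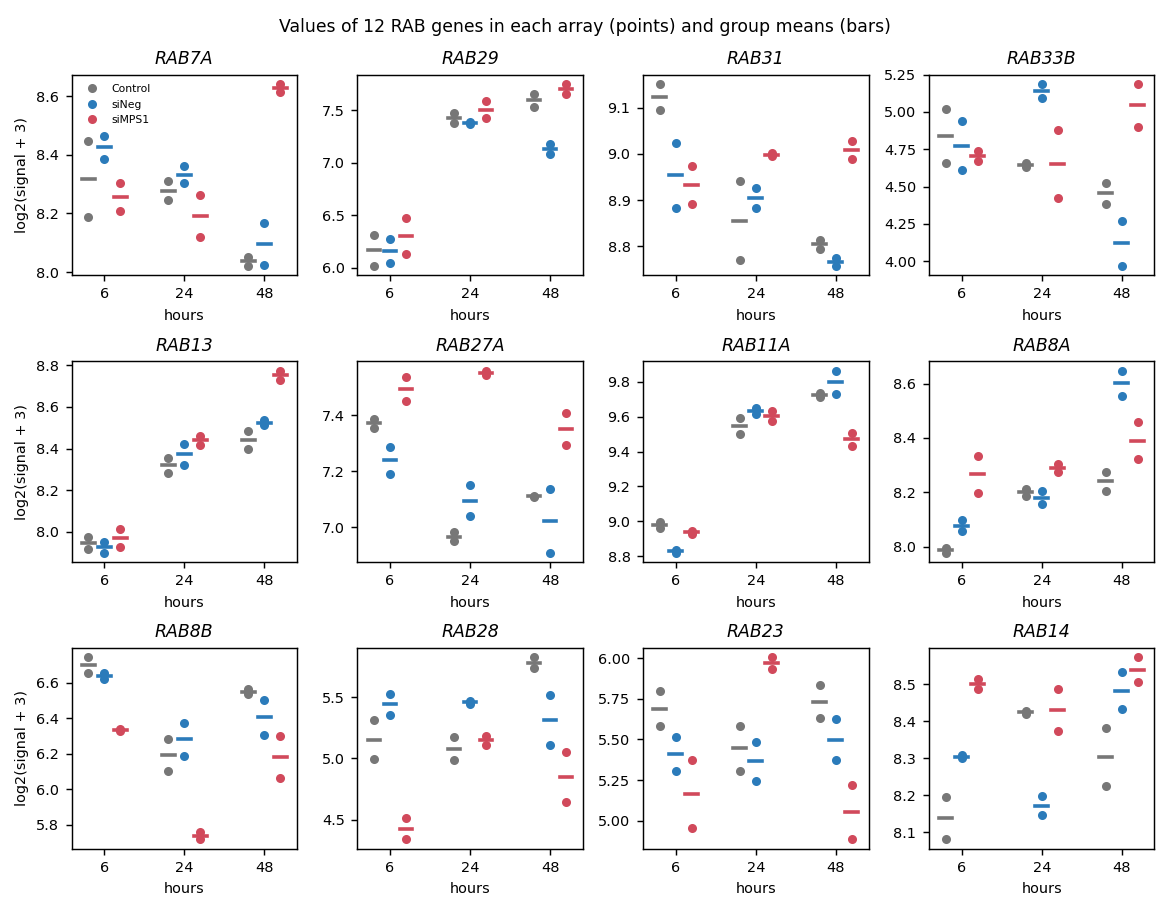
Values of 12 RAB genes in each array (points) and group means (bars) on log2(signal + 3), by hours after transfection, for Control (grey), siNeg (blue) and siMPS1 (red). Each panel has its own vertical axis. RAB7A and RAB31 stand high and RAB11A low in siMPS1 at 48 h relative to both other treatments, while in RAB29 and RAB8A it is siNeg that stands away from Control at that time.

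Cells given the negative siRNA were set against untransfected cells. Between siNeg and Control 1 of 33 RAB genes was called at 6 h, 0 at 24 h and 4 at 48 h, beside 3.82%, 0.933% and 12.9% of all genes. At an unadjusted p under 0.05, 5 of 33 were below that level at 24 h, and averaging each gene's probe sets called 1. With median centring the 6 h count was 7, against 1 between siMPS1 and siNeg, and 1155 of all genes were called against 490. RAB21, an integrin-trafficking RAB, was lower at 6 h by -0.31 (8.02 and 8.04 against 8.39 and 8.29, adjusted p = 0.0264, lost without any 1 of the 4 arrays compared, 0.0623 to 0.19, and without the intensity trend, 0.0647). At 48 h RAB5C was higher by 0.60 (8.24 and 8.40 against 7.77 and 7.67, adjusted p = 0.0178, lost without any 1 of the 4 arrays, 0.0512 to 0.111, and without the trend, 0.066), and RAB9A, which returns receptors from late endosomes to the Golgi, was lower by -0.52 (8.12 and 8.29 against 8.80 and 8.66, adjusted p = 0.000403). RAB8A and RAB29, described above, were the rest. Of the 4 at 48 h, 2 were higher and 2 lower, beside 6.82% of all genes higher and 6.11% lower.

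Against Control, siMPS1 had 7 RAB genes called at 6 h, 3 at 24 h and 9 at 48 h, beside 16.6%, 12.7% and 27.5% of all genes. The 7 were 2 higher and 5 lower (background 9.29% and 7.28%), the 3 were 1 and 2 (5.49% and 7.19%), and the 9 were 4 and 5 (15.3% and 12.2%). These comparisons share the siMPS1 arrays with the ones above, so the values are given side by side and are not a further test. At 6 h RAB14 was higher by 0.36 (adjusted p = 0.00355) and RAB8A by 0.28 (adjusted p = 0.0143), and 5 were lower, RAB28 and RAB8B as above, RAB2A by -0.33 (adjusted p = 0.0118) and RAB5A by -0.27 (adjusted p = 0.015) among them. At 24 h RAB5B was lower by -0.71 (5.17 and 5.24 against 5.69 and 6.14, adjusted p = 0.0171). At 48 h RAB14 was higher by 0.23 (adjusted p = 0.0218), RAB28 lower by -0.94 (adjusted p = 0.00175) and RAB9A lower by -0.42 (8.29 and 8.32 against 8.80 and 8.66, adjusted p = 0.000985). RAB9A differed from siNeg, which read 8.12 and 8.29, by 0.10 at that time (adjusted p = 0.39).

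Some splits into higher and lower turned on the scaling. With each array centred on its median, the median over all genes moved from 0.02 to -0.13 in siNeg minus Control at 6 h, from 0.04 to -0.16 in siMPS1 minus Control at 6 h, from 0.12 to -0.04 in Control 24 h minus 6 h and from -0.05 to 0.09 in Control 48 h minus 24 h. The 7 RAB calls of siMPS1 minus Control at 6 h, 2 higher and 5 lower, then became 13, all lower, and the single call of siNeg minus Control at 6 h became 7, all lower. The 9 at 48 h, 4 higher and 5 lower, became 2 and 5, and the 3 at 24 h, 1 higher and 2 lower, became 2 and 2. RAB14 and RAB8A were no longer called higher at 6 h (adjusted p = 0.137 and 0.429), nor RAB14 and RAB31 at 48 h (0.111 and 0.172). On the average over the times the split in siMPS1 minus siNeg went from 5 higher and 3 lower to 3 and 4. Without siMPS1 6 h array 2, RAB8A, RAB2A and RAB5A lost their calls at 6 h (0.139, 0.144 and 0.0776), each also lost it without either Control 6 h array (0.0548 to 0.0731), and RAB5A did without siMPS1 6 h array 1 (0.0545). RAB5B lost its call without Control 24 h array 2 (0.218) or either siMPS1 24 h array (0.0732 and 0.0622), and RAB14 at 48 h without Control array 2 (0.227) or siMPS1 array 2 (0.134). With probe sets averaged RAB14 at 6 h and 48 h and RAB2A at 6 h were not called (-0.14, 0.0412 and -0.0733, adjusted p = 0.333, 0.804 and 0.629). With only the compared groups fitted, RAB28 at 6 h (0.0719), RAB5B at 24 h (0.0534) and RAB14 and RAB31 at 48 h (0.0676 and 0.0649) were not, and RAB31 was not without the intensity trend (0.0678).

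More RAB genes were called between times than between treatments, as over all genes. Over the 6 steps from 6 to 24 h and from 24 to 48 h within the 3 treatments, 26 of 33 RAB genes (78.8%) were called at least once, beside 76.7% of all genes, and 19 (57.6%) were called in at least 1 of the 9 comparisons between treatments, beside 55.5%. RAB3A, RAB6B, RAB11B, RAB17, RAB32, RAB35 and RAB36 were called in none of the 15, which is 21.2% of the RAB genes beside 18.4% of all genes. In Control, 13 RAB genes were called between 6 and 24 h (39.4%, beside 43.1% of all genes), 9 higher and 4 lower (background 27.1% and 15.9%), or 6 and 7 with median centring. Between 24 and 48 h 3 were called (9.09%, beside 19.6%), all higher (background 8% higher and 11.6% lower). Quantile normalization gave 4 higher and 2 lower.

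The steps within siNeg and siMPS1 were added after the data were seen, and they use no array of the Control steps. From 6 to 24 h 13 RAB genes were called in siNeg and 12 in siMPS1, beside 44.3% and 47.4% of all genes. In all 3 treatments RAB3B, RAB9A, RAB11A, RAB13 and RAB29 rose and RAB8B fell, 6 of 33 RAB genes, beside 23.8% of all genes called in 1 direction in all 3. From 24 to 48 h the count was 0 of 33, beside 4.01%, with 3, 9 and 7 RAB genes called in Control, siNeg and siMPS1 taken singly, beside 19.6%, 29.2% and 24.4% of all genes.

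RAB29 made the most even step of the 6 genes. It read 6.31 and 6.02 in Control, 6.04 and 6.27 in siNeg and 6.13 and 6.47 in siMPS1 at 6 h, and 7.38 and 7.48, 7.39 and 7.37, and 7.42 and 7.58 at 24 h. No 6 h array came within the range of any 24 h array. The rises were 1.26, 1.22 and 1.20 in Control, siNeg and siMPS1 (adjusted p = 1.9e-07, 2.57e-07 and 3.17e-07), and its other probe set gave 1.20, 1.03 and 1.48. RAB11A rose by 0.57, 0.80 and 0.67 and RAB9A by 0.57, 0.94 and 0.69 in the same order. RAB13 rose by 0.38, 0.45 and 0.47, and RAB3B on the probe set used by 1.36, 0.80 and 0.89. On the other probe set of RAB3B the siNeg arrays read 3.53 and 4.41 at 6 h and 3.82 and 4.24 at 24 h. The siNeg arrays of the 2 times thus overlapped there. On that probe set Control read 3.53 and 3.77, then 5.25 and 5.09, and siMPS1 4.16 and 4.02, then 5.09 and 5.72. RAB8B fell by 0.51, 0.36 and 0.60. Of these 18 differences 1 lost its call with an array left out, that of RAB8B in siNeg without siNeg 24 h array 2 (0.177), 6 h array 1 (0.0948) or 6 h array 2 (0.067).

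RAB5B, RAB1B, RAB8A and RAB14 rose in Control between 6 and 24 h without a call in the siRNA treatments: RAB5B by 0.76 (adjusted p = 0.00272, 0.0649 without Control 24 h array 2) and RAB1B by 0.69 (adjusted p = 0.0437, lost without any 1 of 10 arrays, 0.0504 to 0.178). With median centring RAB1B, RAB8A and RAB14 were not called, and RAB1B was not under 4 other settings either (0.0507 to 0.107). Whether these steps differed between treatments was not tested. RAB40B fell by 0.68 (adjusted p = 0.0335), RAB27A by 0.40 (adjusted p = 0.00127, but -0.19 and 0.0666 with probe sets averaged) and RAB31 by 0.27 (adjusted p = 0.00366). Without Control 24 h array 2 the call of RAB40B (0.201) and of RAB31 (0.0825) was lost, and that of RAB40B also without Control 6 h array 1 (0.231), without the filter (0.0646), without the trend (0.0715) and with probe sets averaged (0.845). RAB28 rose in Control from 24 to 48 h by 0.70 (5.17 and 4.98 to 5.83 and 5.74, adjusted p = 0.0163, lost without Control 24 h array 2 or either 48 h array, 0.0589 to 0.12, and with probe sets averaged, 0.127). RAB8B rose by 0.36 (adjusted p = 0.0434) and RAB11A by 0.18 (adjusted p = 0.0449) over that step, lost in 8 and 12 of the 18 fits without 1 array (0.0524 to 0.277 and 0.051 to 0.263) and under 2 and 6 other settings (0.0621 to 0.0659 and 0.0511 to 0.482).

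**Figure D4:**
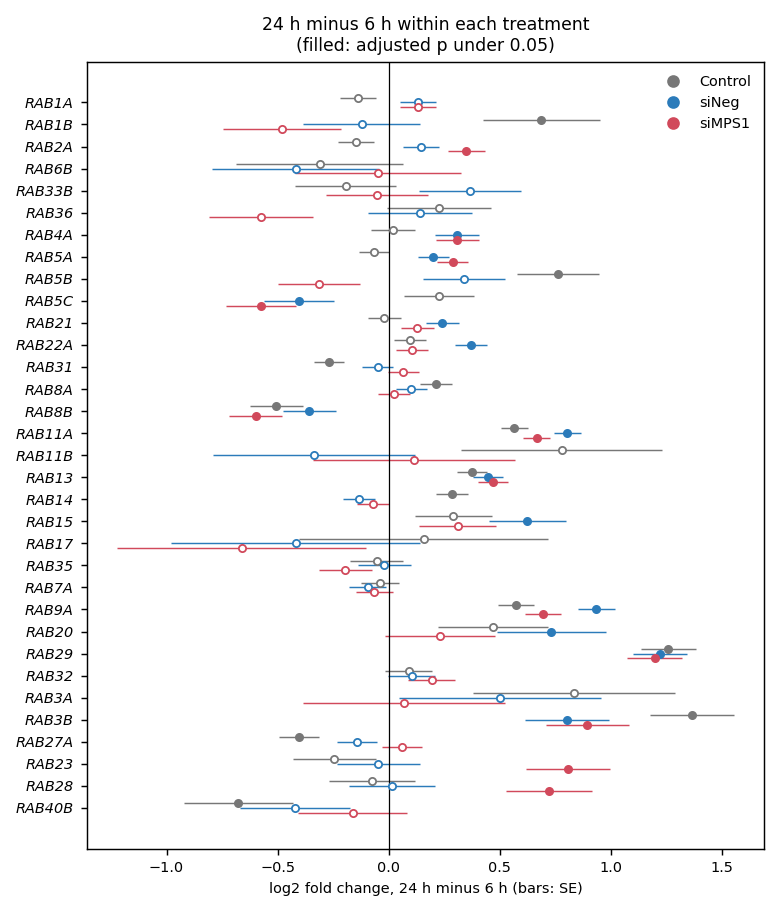
Difference in log2(signal + 3) between 24 h and 6 h for the 33 RAB genes within Control (grey), siNeg (blue) and siMPS1 (red), with the standard error of the fit as bars. Filled points have an adjusted p under 0.05. RAB29 sits between 1.20 and 1.26 in all 3 treatments, while RAB5B is filled in Control and open in siNeg and siMPS1.

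Probe sets of 1 gene did not always agree. Of the 33 genes, 17 had several probe sets that passed the filter, 44 in all, and in siMPS1 minus siNeg all probe sets of a gene had 1 sign in 6 of the 17 at 6 h, 10 at 24 h and 7 at 48 h. Of the 10 genes called at 48 h, 7 had several probe sets and 3 of these (RAB7A, RAB29 and RAB31) had 1 sign throughout. RAB31 was higher on all 3 (0.24, 0.23 and 0.75, adjusted p = 0.0126, 0.0166 and 1.18e-07 over all probe sets). The middle one lost its call without siNeg array 2 (0.0858) or siMPS1 array 2 (0.102) of 48 h. RAB7A read 0.53 and 0.20 (the other with adjusted p = 0.123) and RAB29 0.57 and 0.45 (the other with adjusted p = 0.0769). RAB8A, RAB13 and RAB33B have 1 probe set each.

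RAB1A, RAB2A, RAB11A and RAB27A had probe sets of both signs at 48 h. RAB11A read -0.33 on the probe set used and 0.13 on the other (adjusted p = 0.453). RAB1A read 0.25, -0.14 and 0.53, the last with adjusted p = 0.00697. RAB2A had 6 probe sets from 0.32 to -0.58, of which 0.31 and 0.19 were called, the latter lost in 12 of 18 fits without 1 array (0.0504 to 0.19). The RAB2A probe sets reading 0.32 and 0.19 have names ending in _x_at, the suffix described for RAB23. RAB27A read 0.33, -0.07, -0.30 and 0.30, of which -0.07 came from an _x_at probe set. With the probe sets of a gene averaged, RAB11A, RAB27A and RAB2A were not called at 48 h (adjusted p = 0.272, 0.597 and 0.695), nor was RAB27A at 24 h (0.102), and RAB28 at 6 h, whose other probe set read 0.65 (adjusted p = 0.205), was not called either (0.637).

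Several RAB genes that were not called on the probe set used had a lower reading on another in siMPS1 at 48 h. These were picked out after their values were seen. Of 27 other probe sets, 6 were lower (RAB3B, RAB4A, RAB5A, RAB5C, RAB28 and RAB35) and 4 higher (RAB1A, RAB2A and RAB31 with 2), beside 14.2% of all 11824 probe sets lower and 14.7% higher. The other probe set of RAB5C read 7.93 and 7.98 in siNeg, 7.30 and 7.41 in Control and 6.99 and 6.83 in siMPS1, a difference of -1.04 from siNeg (SE 0.10, adjusted p = 4.27e-07), where the probe set used gave -0.18. The other of RAB5A read 6.50 and 6.50 in siNeg, 6.67 and 6.57 in Control and 5.18 and 5.65 in siMPS1, a difference of -1.08 (adjusted p = 2.99e-05), where the probe set used gave 0.11. In both genes the 2 siMPS1 arrays lay below the other 4 on the other probe set. RAB35, RAB28, RAB3B and RAB4A read -1.22, -1.23, -0.92 and -0.48 there, against 0.14, -0.47, 0.26 and -0.02 on the probe sets used. Those of RAB4A, RAB5A and RAB5C stayed past the threshold whichever array was left out. RAB28 lost it without siNeg array 2 (0.0801), RAB35 without siNeg array 1 (0.064) or siMPS1 array 1 (0.179), and RAB3B without either siNeg array (0.108 and 0.0713) or siMPS1 array 2 (0.182) of 48 h. The ACTB and GAPDH 3′ minus 5′ differences were largest in the same siMPS1 48 h arrays. Where each probe set lies on its transcript was not used here, and a link to the integrity controls was not tested.

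**Figure D5:**
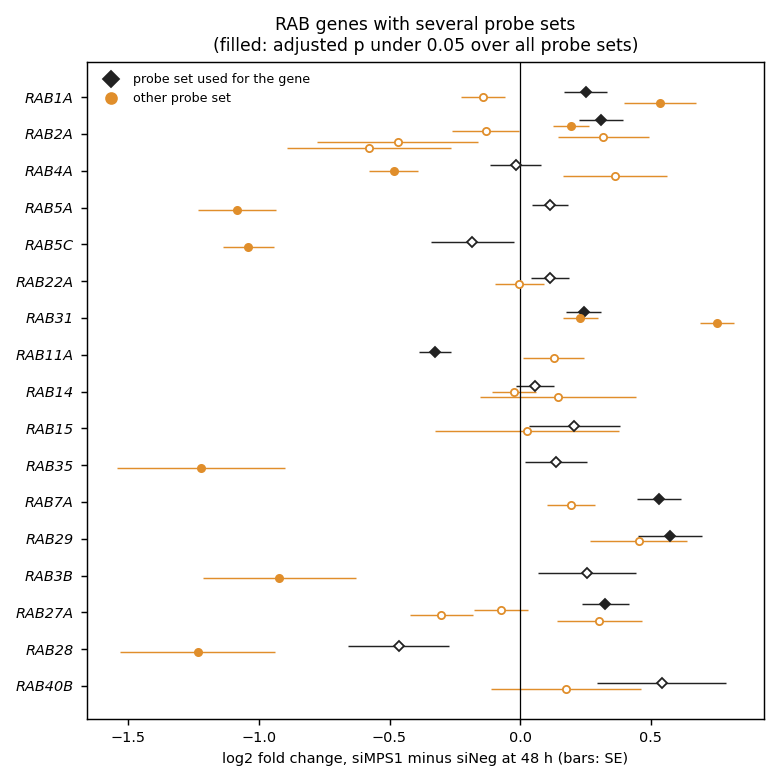
Difference in log2(signal + 3), siMPS1 minus siNeg at 48 h, for each probe set of the 17 RAB genes with several, with the standard error as bars. Diamonds are the probe sets used for the genes and circles the others, filled where the adjusted p over all probe sets is under 0.05. RAB31 is filled on all 3, while RAB5A and RAB5C are open on the probe set used and below -1 on the other.

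Genes that run the RAB cycle were taken from lists that hold no RAB. The only alternative tried for these genes was leaving out 1 array. Other probe sets, scalings and models were not tried for them. By limma, at 6 h none of 8 genes of RAB prenylation and chaperoning, 22 exchange factors and 24 TBC-domain GTPase-activating proteins was called, and 2 of 32 effectors were lower (BICD2 by -0.40 and ACAP2 by -0.41), beside 7.7% of all genes called and 4.25% lower. In the first 3 lists 2, 6 and 4 genes had an unadjusted p under 0.05. The call of BICD2 was lost in 11 of 18 fits without 1 array (0.0545 to 0.351) and that of ACAP2 in 8 (0.0507 to 0.225). At 24 h 1 of 8, 1 of 22, 1 of 24 and 3 of 32 were called, all lower, beside 10.9% of all genes called, 5.81% lower and 5.14% higher: PRAF2, TRAPPC3, TBC1D15, and RUFY3, MICAL1 and PIK3C3. PRAF2 was called in all 18 fits. The other 5 were lost without siNeg 24 h array 1 (0.0509 to 0.167), TBC1D15, RUFY3 and PIK3C3 also without siNeg 24 h array 2 (0.0843 to 0.109) or siMPS1 24 h array 2 (0.0502 to 0.255), and TBC1D15 and PIK3C3 without siMPS1 24 h array 1 (0.0773 and 0.11). At 48 h the counts were 5 of 8 (62.5%), 7 of 22 (31.8%), 2 of 24 (8.33%) and 5 of 32 (15.6%), beside the 29.2% of all genes given above. The list medians at 48 h were -0.10, 0.01, 0.04 and 0.13, beside 0.03 over all genes.

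In the cycle list at 48 h, GDI2, a GDP dissociation inhibitor, was higher by 0.40 (adjusted p = 0.000102) and RABAC1, a prenylated RAB acceptor, by 0.61 (adjusted p = 0.000181). PRAF2, of the same acceptor family, was lower by -1.75 (adjusted p = 1.79e-05) after -1.12 at 24 h, RABIF by -0.44 and RABGGTB, a subunit of the enzyme that adds the lipid anchor of RABs, by -0.22. Against Control at 48 h, 4 of the 8 genes in this list were called in siMPS1 (50%, beside 27.5% of all genes). GDI2 was higher there and PRAF2, RABIF and RABGGTB were lower. RABAC1 was not called against Control, and siNeg itself was called lower than Control in RABAC1 at that time. Among the exchange factors MON1B, part of the complex that loads RAB7 with GTP, was higher by 0.95 (adjusted p = 0.0029), MADD, which acts on RAB3 and RAB27, by 0.62 (adjusted p = 0.0306), and RIN2, RAB3GAP1, RGP1 and ANKRD27 by 0.26 to 0.39. TRAPPC3, a core subunit of the complexes that activate RAB1, was lower by -0.39 at 24 h and -0.50 at 48 h (adjusted p = 0.00349 and 0.00011). Against Control at 48 h, 6 of the 22 exchange factors were called in siMPS1 (27.3%, beside 27.5% of all genes). MON1B, RGP1 and ANKRD27 were higher there and TRAPPC3, DENND4C and DENND5B lower, while MADD, RIN2 and RAB3GAP1 were not called. Among effectors RABEP2, which binds RAB4 and RAB5, was higher by 0.63 and GOLGA2, a Golgi tether that binds RAB1, by 0.32. RUFY3 was lower by -0.54 at 24 h and higher by 0.65 at 48 h. KIF20A, a mitotic kinesin that binds RAB6, was lower by -1.13 (adjusted p = 5.63e-07) and PIK3R4, of the endosomal lipid kinase complex, by -0.46.

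Of the 19 genes of these lists called at 48 h, GDI2, RABAC1, PRAF2, TRAPPC3, RABEP2, PIK3R4 and KIF20A were called in all 18 fits that left out 1 array. MON1B lost it without siNeg 48 h array 2 (0.0582) and RUFY3 without siMPS1 48 h array 1 (0.0533). RAB3GAP1 and RGP1 lost it without siNeg 48 h array 2 (0.0836 and 0.265) or siMPS1 48 h array 1 (0.0582 and 0.199), MADD and RABIF without siNeg array 2 (0.258 and 0.103) or siMPS1 array 2 (0.234 and 0.118), and RIN2 without siNeg array 1 (0.207) or siMPS1 array 1 (0.115). RABGGTB lost it without 3 of the 4 arrays compared (0.0534 to 0.116), and GOLGA2 without any 1 of the 4 (0.0505 to 0.124). ANKRD27, TBC1D5 and TBC1D22A lost it in 13, 14 and 8 of the 18 fits (0.0504 to 0.247, 0.0506 to 0.188 and 0.051 to 0.251).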

How the data were processed

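Signals of 18 Affymetrix HG-U133A 2.0 arrays were used as the authors deposited them. The submitters' processing notes name MAS5, with no version, and the deposited values are on a log scale that the notes do not name. They were taken as log2, because raising 2 to them gives a 2% trimmed mean of 100.122 to 100.134 in every array, which log2 MAS5 signals scaled to a target would give. Labels were the source of groups.

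Deposited log2 values were turned back into signals, 3 was added and log2 taken. The lowest 40% of probe sets by mean were left out. Of 22277 probe sets 19064 name 1 gene, 1043 several and 2108 none; the probe set with the highest deposited mean stood for each gene. One limma model (3.58.1, R 4.3.3) was fitted on 9 group means with an intensity trend (9 residual degrees of freedom), two-sided, with Benjamini-Hochberg adjustment over 7828 genes within each comparison. A call is an adjusted p under 0.05. The test was checked on simulated data with independent noise and planted changes larger than most differences described here. That check does not show how well small differences are found.

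Members, lists and named genes were chosen with earlier results of these data known. Genes named are those called between siMPS1 and siNeg at 1 time or on average with arrays that do not overlap, up to 4 in each direction in the other fixed comparisons, TTK, and called members whose probe sets differ in sign; others named were chosen after their values were seen. Alternatives were the pseudocount, scaling, filter, probe set, intensity trend, replicate block, samples fitted and each array left out; those for the added time steps, the other gene lists and the other probe sets were chosen after the data were seen. The number of arrays limits the precision.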

Additional observations from a re-analysis of the deposited data

Results flagged for a closer look

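The difference between siMPS1 and siNeg itself differed between 24 and 48 h in 5 of 33 RAB genes by a test of that difference (limma, adjusted p under 0.05), beside 15.8% of all genes. RAB33B moved from -0.49 to 0.92, a change of 1.41 (SE 0.32, adjusted p = 0.00607), and RAB7A from -0.14 to 0.53, a change of 0.67 (SE 0.12, adjusted p = 0.000948). Both stayed past the threshold whichever array was left out. RAB23 moved from 0.60 to -0.45, a change of -1.05 (SE 0.27, adjusted p = 0.0116), which was lost without siNeg 24 h array 2, siNeg 48 h array 1 or siMPS1 48 h array 2 (0.0524 to 0.056). RAB8A moved from 0.11 to -0.21, a change of -0.32 (adjusted p = 0.0376, lost without any 1 of 6 arrays, 0.0649 to 0.149, without the trend, 0.0663, and with only the compared groups, 0.088). RAB11A moved from -0.03 to -0.33, a change of -0.30 (adjusted p = 0.0236, lost without any 1 of 5 arrays, 0.0513 to 0.109, and under 3 other settings, 0.0623 to 0.216). From 6 to 24 h 0 of 33 RAB genes changed in this way by limma, beside 3.68% of all genes, with 5 at an unadjusted p under 0.05.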

How the results depend on the processing

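The counts of RAB genes called moved by over 1.5 times under some settings. In siMPS1 minus siNeg, the 1 call at 6 h, RAB28, became 0 with probe sets averaged. It also became 0 with the lowest 60% left out, where RAB28 was not among the genes tested. The 4 at 24 h became 2 with median centring or without the intensity trend, and 1 with only the compared groups fitted or a fold change of at least 1.5, which also left 1 of 10 at 48 h and 1 of 8 on average. In siNeg minus Control, the 1 at 6 h became 7 with median centring and 0 without the trend or with the fold condition, the 0 at 24 h became 1 with probe sets averaged or only the compared groups, and the 4 at 48 h became 1 with the fold condition. In siMPS1 minus Control, the 7 at 6 h became 13 with centring and 1 with the fold condition, the 3 at 24 h became 5 with probe sets averaged, and the 9 at 48 h became 3 with the fold condition. The 5 changes from 24 to 48 h became 10 with probe sets averaged and 3 without the trend or with the fold condition. In Control, the 13 from 6 to 24 h became 5 with the fold condition, and the 3 from 24 to 48 h became 6 with quantile normalization, 8 with centring and 1 without the filter or with the fold condition. The cause was not tested.

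Leaving out 1 array gave 0 to 1, 1 to 4 and 6 to 11 calls in siMPS1 minus siNeg at 6, 24 and 48 h, 0 to 1, 0 to 1 and 2 to 4 in siNeg minus Control, 1 to 8, 2 to 5 and 6 to 10 in siMPS1 minus Control, 5 to 9 on average, 0 to 1 and 2 to 8 in the changes from 6 to 24 and 24 to 48 h, and 8 to 13 and 0 to 5 in the Control steps. A group left with 1 array was assumed to vary like the others. Replicate differences of arrays with the same number correlated at -0.088 to 0.102. Such correlations cannot settle whether these arrays shared more than a number. With the replicate block the RAB calls were 1, 4 and 10 in siMPS1 minus siNeg, and 9 rather than 7 in siMPS1 minus Control at 6 h.

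Signs turned 24 times among the 61 named results, each on another probe set or their mean. In siMPS1 minus siNeg these were RAB28 at 6 h (0.65), RAB27A at 24 h (-0.12), and at 48 h RAB1A (-0.14), RAB2A (-0.13, -0.47 and -0.58, mean of probe sets -0.0597), RAB11A (0.13) and RAB27A (-0.0747 and -0.30). On average over the times they were RAB14 (-0.11) and RAB27A (-0.0869). In siMPS1 minus Control they were RAB14 at 6 h (-0.63 and -0.15, mean -0.14) and 48 h (-0.27), RAB2A at 6 h (0.53 and 0.57) and RAB31 at 48 h (-0.0199). In Control they were RAB40B (0.80, mean 0.063) and RAB27A (0.39 and 0.18) from 6 to 24 h and RAB11A (-0.0382) from 24 to 48 h. Of the 61, 24 kept direction and call under every alternative pseudocount, scaling, filter, model or mean of probe sets that tested them. That count leaves out single other probe sets and the fold condition. Many of the 61 lost their call with 1 array left out, most of them given above. Not given above is RAB13 averaged over the times (0.11 from siNeg), which lost its call in some of those fits. It was not called with median centring, without the intensity trend or with only the compared groups either. RAB29 averaged over the times (0.28 from siNeg) was 0.17 with probe sets averaged and not called (limma, adjusted p = 0.0859).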
